A study of Homo sapiens with 12 samples.

Results

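The genes described here are 10 reported transcriptional targets of Wnt/β-catenin signaling or markers of intestinal stem cells, *AXIN2*, *LGR5*, *ASCL2*, *NKD1*, *RNF43*, *ZNRF3*, *TCF7*, *LEF1*, *SP5* and *NOTUM*. They were taken by gene symbol from count tables that list 60580 genes. RNA was sequenced from HCT116 cells, an established human colorectal cancer line, with 2 genotypes. In cells lacking *miR-34a/b/c*, called *KO* cells here, the stretches that encode the precursors of miR-34a and miR-34b/c had been removed with CRISPR-Cas9, and *WT* cells had received the Cas9 vector without a guide RNA. Both genotypes were expanded as single-cell clones, and the sources used here do not say how many clones the libraries of a genotype represent, so genotype and clone cannot be told apart. The treatment lasted 48 h and used 5-fluorouracil (5-FU, 4 µM), a thymidylate synthase inhibitor used in chemotherapy of colorectal cancer, or its solvent DMSO. After the file labelled *WT* 5-FU replicate 1 was left out, because its counts differ from those of *WT* DMSO replicate 3 in 0 of 60580 genes, there were 3 *WT* DMSO, 2 *WT* 5-FU, 3 *KO* DMSO and 3 *KO* 5-FU libraries.

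Wnt ligands bind Frizzled receptors with LRP5 or LRP6, which stops the destruction complex of APC, Axin and GSK3 from marking β-catenin for degradation. β-catenin then enters the nucleus and activates genes together with TCF/LEF factors. At the base of the intestinal crypt this signal maintains the stem cells, and many of the genes it activates encode inhibitors of the pathway itself. HCT116 cells carry a stabilizing mutation in *CTNNB1*, the β-catenin gene, so that their pathway is active without added ligand.

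Total counts per library ranged from 22831415 to 39064210 with a median of 25698417. The p-values measure the spread between these libraries only. *MIR34AHG*, the host transcript of miR-34a, was listed at 101 to 185 counts in *WT* DMSO libraries and at 514 to 675 in *KO* DMSO libraries. Its transcript reaches beyond the deleted stretch, so that this level does not show the deletion, and mature miRNAs were not analysed here. *CDKN1A*, the p53 target encoding p21 and a check of the treatment, rose with 5-FU in both genotypes. The log2 rise was 3.64 in *WT* cells and 2.40 in *KO* cells. In counts scaled to a common library total (CPM), its mean with DMSO was 167 in *WT* and 469 in *KO* cells. With 5-FU its mean was 2078 CPM in *WT* and 2481 CPM in *KO* cells. Of 6 epithelial marker genes all 6 reached the count minimum in at least 1 library. Of these, *CDH17* did so only in *KO* 5-FU libraries and had 2 to 3 counts in *WT* DMSO and 3 to 6 in *KO* DMSO libraries. Of 14 stromal, immune and endothelial markers 5 were at 3 counts or fewer in every library. The summed level of the latter was 23.8 to 28.6 CPM (counts scaled to a common library total) in *WT* DMSO, 47.9 to 52.3 in *KO* DMSO, 56.5 to 67.2 in *WT* 5-FU and 72.3 to 73.7 in *KO* 5-FU libraries, against 5249 to 12159 CPM for the epithelial markers. Most of the stromal, immune and endothelial sum was the collagen gene *COL1A1*, with means of 24.99, 48.0, 54.7 and 70.1 CPM in the same order of groups, and only 3 of the 14 reached the count minimum in any library. The immune marker *PTPRC* was at 0 or 1 count in every library and *DCN*, of fibroblasts, likewise. The part of these markers in the results that follow was not tested.

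The deleted miRNAs pair with mRNAs mainly through their seed, bases 2 to 8, which is shown here in capitals within the mature sequences from RefSeq (GRCh38.p14). miR-34a-5p lies on the minus strand of chromosome 1 and miR-34b-5p on the plus strand of chromosome 11. Their seeds are shifted against each other by a base and match different letters in an mRNA. miR-34c-5p is named only.
hsa-miR-34a-5p: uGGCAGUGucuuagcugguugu
hsa-miR-34b-5p: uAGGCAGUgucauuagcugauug

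The complement of the miR-34a-5p seed, CACTGCC, occurred once in the 3′ UTR of the Ensembl canonical transcript of 6 of the 10 genes (*AXIN2*, *LGR5*, *NKD1*, *TCF7*, *LEF1* and *NOTUM*). Among 13105 tested genes with such a 3′ UTR, 17.6% held this match. *LGR5* and *LEF1* were not among the tested genes, and of the 7 that were, 4 held it. The match is shown in capitals for the 4 of these genes that were expressed, with bases of the 3′ UTR around it in GENCODE 44 on GRCh38, read along the mRNA. The *AXIN2* stretch is chr17:65529123-65529152 on the minus strand, that of *NKD1* chr16:50637768-50637797 on the plus strand, that of *TCF7* chr5:134146878-134146907 on the plus strand and that of *NOTUM* chr17:81952811-81952840 on the minus strand. The *NKD1* 3′ UTR is annotated with 15471 bases against a median of 1282 over the genes searched, and a longer 3′ UTR holds more chance matches.
AXIN2 3′ UTR: gaggcctgctagaatCACTGCCgctgtgct
NKD1 3′ UTR: cagaggagcagttgcCACTGCCccatcccc
TCF7 3′ UTR: atctcccccatccccCACTGCCacaccctc
NOTUM 3′ UTR: ctgtctgggtctgccCACTGCCctcctgcc

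In *TCF7* the match is followed by an A, as it is in *LGR5* and *LEF1*, whereas in *AXIN2*, *NKD1* and *NOTUM* it is not. The miR-34b-5p match, ACTGCCT, was found in 15.9% of the same 3′ UTRs and among the 10 genes in *ZNRF3* only, at 2 positions. *RNF43*, *ASCL2* and *SP5* held neither match in this transcript. Of the 4 expressed genes with a miR-34a-5p match, *AXIN2* was higher in unstressed *KO* cells, while *NKD1*, *TCF7* and *NOTUM* had log2 differences of -0.41, -0.48 and -0.17, as described below. A match in these letters is a description, and binding was not tested here.

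Of the 10 genes, 7 reached 20 counts in at least 1 library and were tested. *LGR5*, the R-spondin receptor that marks crypt base stem cells, was at 0 to 3 counts in all 11 libraries. *ASCL2*, a transcription factor of the same stem cells, was at 0 counts in 9 libraries and at 1 count in the other two, both *KO* 5-FU libraries. *LEF1*, a DNA-binding partner of β-catenin, was at 0 counts in all 5 *WT* libraries, at 0, 1 and 0 counts in *KO* DMSO libraries and at 3, 1 and 2 counts in *KO* 5-FU libraries. At totals of this depth a count of 0 allows up to 3 counts, and no difference was detectable for these 3 genes. Both genes of the list that are best known as stem cell markers, *LGR5* and *ASCL2*, were therefore at the limit of detection in every condition, whereas 5 of the 7 expressed genes encode inhibitors of the pathway.

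Per kilobase of annotated exons, levels in *WT* DMSO cells ran from *NOTUM* at 5.16 CPM per kb over *TCF7* at 4.28, *RNF43* at 3.92, *ZNRF3* at 3.84, *AXIN2* at 1.39 and *NKD1* at 1.14 to *SP5* at 0.422. The libraries of *RNF43* and *ZNRF3* overlapped in this order, and those of the other neighbors did not. In *KO* DMSO cells *RNF43* led at 10.7 CPM per kb, followed by *NOTUM* at 4.57, *ZNRF3* at 3.43 and *TCF7* at 3.07. In *WT* 5-FU cells *TCF7* led at 5.40 CPM per kb, and in *KO* 5-FU cells *RNF43* at 6.94. The order depends on the length used. With coding length, chosen after the data were seen, *TCF7* led in *WT* DMSO cells at 37.5 CPM per coding kb and *NKD1* moved from the sixth place to the second at 14.1, since most of its 17359 annotated exonic bases are 3′ UTR. *SP5* was the lowest of the 7 in all 4 groups with coding length, and in all 4 with annotated exons, where in *KO* 5-FU cells its libraries overlapped those of *NKD1*.

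**Figure D1:**
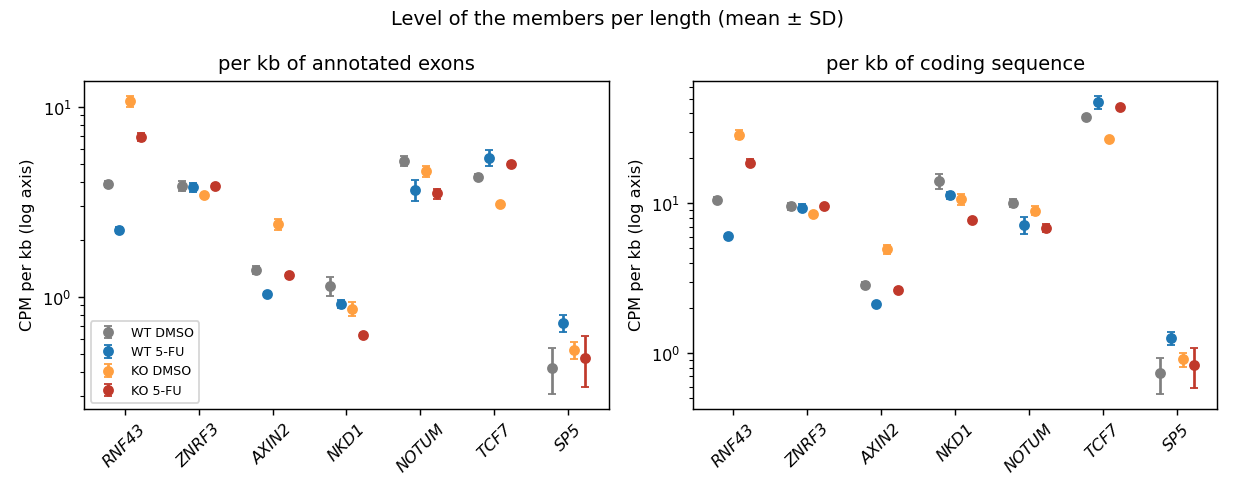
Level of the 7 tested genes (x axis) in CPM per kb of annotated exons (left) or of coding sequence (right) on log axes, mean ± SD over the 3, 2, 3 and 3 libraries of *WT* DMSO, *WT* 5-FU, *KO* DMSO and *KO* 5-FU. *RNF43* leads in *KO* DMSO cells on both scales, while the places of *NKD1* and *TCF7* differ between the scales.

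The first comparison asked how loss of *miR-34a/b/c* affects these genes in unstressed cells. Here and below, a gene rose or fell where edgeR's quasi-likelihood test gave a Benjamini-Hochberg adjusted p (FDR) below 0.05 over all 16123 genes tested and a fold change above 1.5. By this rule 9.1% of all tested genes were higher and 4.97% lower in *KO* than in *WT* cells under DMSO. Of the 7 genes 2 were higher, *RNF43* and *AXIN2*, and none was lower. The median log2 difference was -0.16 over the 7 genes and 0.03 over all tested genes, so the list as a whole did not move up with these 2.

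*RNF43* encodes a membrane ubiquitin ligase that removes Frizzled receptors from the cell surface. It was at 23.7, 25.2 and 25.5 CPM in the *WT* DMSO libraries and at 65.8, 72.6 and 63.9 CPM in those of *KO* cells. The groups did not overlap, and all 3 *KO* libraries were more than 2-fold above the highest *WT* library. The difference was 1.44 ± 0.07 (SE) on the log2 scale, a 2.72-fold higher level, with an FDR of 1.17e-10. Its homolog *ZNRF3*, a ubiquitin ligase with the same substrates, was at 23.5 to 24.3 CPM in *KO* and at 25.1 to 28.3 CPM in *WT* libraries, a log2 difference of -0.16 with a 95% confidence interval from -0.31 to -0.02 and an FDR of 0.0591. The related ligases thus differed in what was measured, and the interval for *ZNRF3* leaves no room for a change of the size seen in *RNF43*.

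*AXIN2* encodes a scaffold of the destruction complex and is a widely used readout of β-catenin activity. Its levels were 7.62, 7.10 and 6.95 CPM in *WT* DMSO libraries and 11.99, 13.5 and 12.1 CPM in *KO* DMSO libraries. No library of either group reached into the other. The log2 difference was 0.79 ± 0.09 (SE), a 1.73-fold higher level, with an FDR of 2.66e-06. With the minimum fold change of 1.5 placed inside the test the FDR was 0.0671, and with a factor for unwanted variation (RUVg) as covariate it was 0.128 at a log2 difference of 0.71.

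The other inhibitors were not higher. *NKD1*, which binds Dishevelled, was at 18.7, 18.4 and 22.4 CPM in *WT* and at 16.0, 15.5 and 13.7 CPM in *KO* DMSO libraries, a log2 difference of -0.41 ± 0.09 (FDR = 0.00149 by edgeR) that stayed under the minimum fold change. *NOTUM*, a secreted enzyme that strips Wnt ligands of their lipid, had overlapping libraries at 14.0 to 15.8 CPM in *WT* and 12.6 to 14.3 CPM in *KO* cells. Its log2 difference was -0.17 with an FDR of 0.136.

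Among the nuclear factors, *TCF7*, a DNA-binding partner of β-catenin, was at 41.8, 44.5 and 43.4 CPM in *WT* and at 31.2, 31.0 and 30.7 CPM in *KO* DMSO libraries. The groups did not overlap. The log2 difference of -0.48 ± 0.06 had an FDR of 1.52e-05 by edgeR but was 1.40-fold and so under the minimum fold change. With the RUVg factor it was -0.70 with an FDR of 0.0164 and passed, so that *RNF43* and *TCF7* were then the 2 called genes in place of *RNF43* and *AXIN2*. The 3′ end of *TCF7* shares 210 exonic bases with *SKP1* on the opposite strand, a gene at 4342 to 7774 counts, and strand use in counting is not given in the sources used here. *SP5*, a zinc finger factor activated directly by Wnt signals, had only 14 to 54 counts per library, and its log2 difference of 0.29 had a 95% confidence interval from -0.33 to 0.91.

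**Figure D2:**
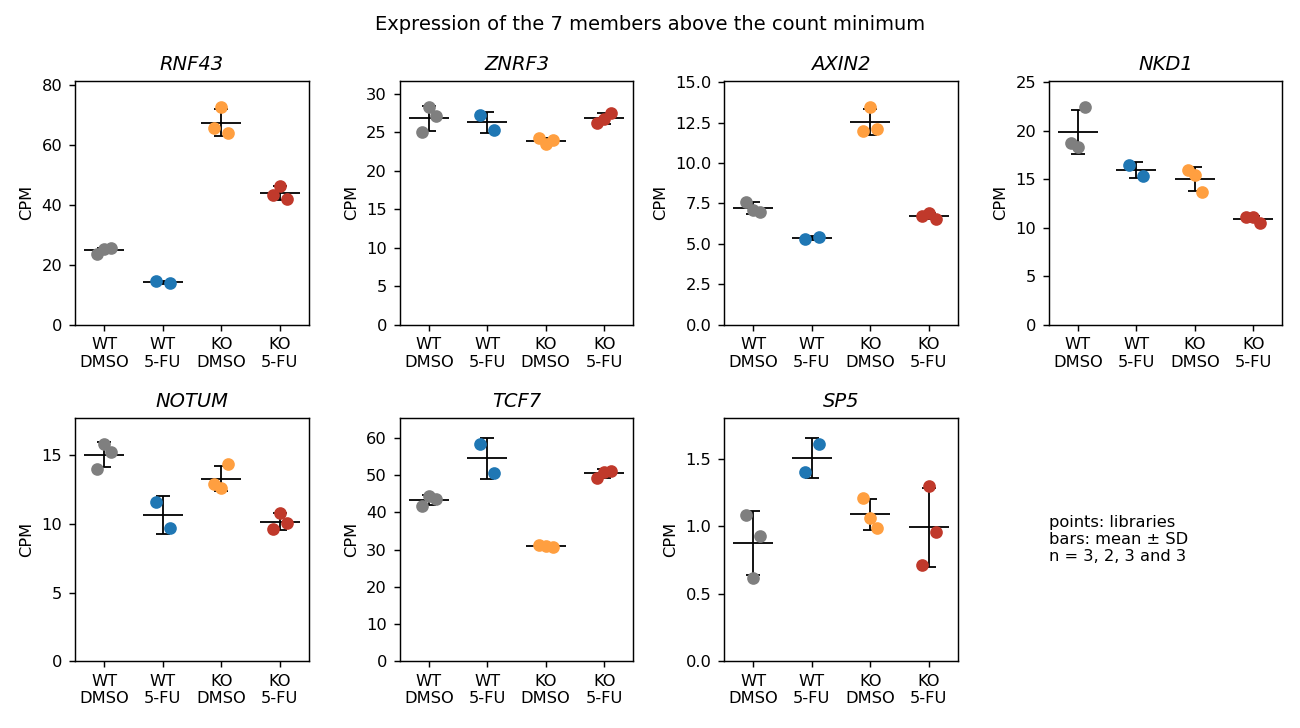
Expression of the 7 tested genes in CPM (y axes from 0, a scale per gene) in each library of the 4 groups. Points are libraries and bars are mean ± SD. *RNF43* and *AXIN2* are highest in *KO* DMSO cells, and *TCF7* is lowest there at about 31 CPM.

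Since the cells were cloned and edited, the genes next to each member were also described. For *RNF43* (chr17:58353676-58417595, minus strand) the 20 nearest tested genes, 10 on either side, had a median log2 difference of -0.07 between *KO* and *WT* cells under DMSO. Of these 20, 1 lay above *RNF43*, the antisense RNA *TSPOAP1-AS1* at 2.56. *TSPOAP1-AS1* shares 345 exonic bases with *RNF43* on the opposite strand and had 0 to 22 counts, against 403 to 1941 for *RNF43*, and reads of this antisense pair cannot be told apart without strand. A read-through gene without a symbol, ENSG00000285897, shares 4326 exonic bases with *RNF43* and was not analysed here. For *AXIN2* (chr17:65528563-65561648, minus strand) the 20 neighbors had a median of -0.02 and a highest value of 0.66, below the 0.79 of *AXIN2* itself. *AXIN2* shares 1316 exonic bases with a gene on the same strand without a symbol, ENSG00000266076, which was not analysed here either. *RNF43* and *AXIN2* lie on the same arm of chromosome 17, and of their neighbors 8 and 9 of 20 had a positive difference. Around the other 5 genes the medians were between -0.04 and 0.07.

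The second comparison asked how *WT* cells respond to 5-FU. Of all tested genes 18.5% were higher and 9.38% lower after 5-FU than with DMSO. Of the 7 genes *RNF43* fell and *SP5* rose, and the median was -0.32 against 0.03 over all genes. The RUVg factor lay to 98.2% between the treatments, so 5-FU and this factor cannot be told apart. With it as covariate none of the 7 genes passed in either 5-FU comparison by edgeR. Without it 6 of the 7 genes in *WT* and 6 in *KO* cells had an unadjusted p under 0.05 by edgeR. Over all 16123 tested genes 10307 in *WT* and 10298 in *KO* cells did.

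*RNF43* was at 14.5 and 13.8 CPM in the *WT* 5-FU libraries against 23.7 to 25.5 CPM with DMSO. The log2 difference was -0.81 ± 0.08, a 1.75-fold lower level with an FDR of 4.1e-07. *SP5* was at 1.40 and 1.61 CPM after 5-FU and at 1.08, 0.618 and 0.927 CPM with DMSO, with 54 and 47 counts against 30, 14 and 32. The libraries did not overlap, and the log2 difference was 0.76 ± 0.31 with an FDR of 0.0428. This call was lost in 14 of 21 alternatives, among them DESeq2 with an FDR of 0.0849 and no count filter with 0.0576, and turned to -1.04 with the RUVg factor. These 14 include the fits without *WT* DMSO replicate 2 or 3, either *WT* 5-FU library, *KO* DMSO replicate 2 or 3, or *KO* 5-FU replicate 3. With any 1 library left out the log2 difference was between 0.58 and 0.92.

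Of the other inhibitors *AXIN2*, *NOTUM* and *NKD1* had negative differences under the minimum fold change, and the libraries of *ZNRF3* overlapped between the treatments. *AXIN2* was at 5.29 and 5.45 CPM, below all *WT* DMSO libraries, a log2 difference of -0.43 (FDR = 0.00237 by edgeR). *NOTUM* was at 11.6 and 9.70 CPM, a difference of -0.49 (FDR = 0.000643 by edgeR), which without *WT* 5-FU replicate 2 was -0.63 and passed. *NKD1* was at 16.5 and 15.4 CPM, a difference of -0.32 (FDR = 0.0106 by edgeR). *ZNRF3* at 27.3 and 25.4 CPM lay within the range of the DMSO libraries, and the 95% confidence interval of its difference was -0.18 to 0.13. *TCF7* had a difference in the other direction, with 58.4 and 50.6 CPM after 5-FU, a log2 value of 0.34 (FDR = 0.000504 by edgeR) that was -1.05 with the RUVg factor.

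In *KO* cells 13.3% of all tested genes were higher and 12% lower after 5-FU. Of the 7 genes *TCF7* rose, *AXIN2* and *RNF43* fell, and the median was -0.39 against -0.06 over all genes. *AXIN2* went from 11.99, 13.5 and 12.1 CPM to 6.70, 6.91 and 6.56 CPM, a log2 difference of -0.89 ± 0.09 (FDR = 3.61e-07 by edgeR). With 5-FU the *KO* libraries lay below the lowest *WT* DMSO library at 6.95 CPM. *RNF43* was at 43.2, 46.4 and 42.1 CPM after 5-FU, a log2 difference of -0.62 ± 0.07 (FDR = 6.82e-07 by edgeR) close to the minimum fold change, and with DESeq2 at -0.56 or TMM factors at -0.57 it no longer passed. Leaving out *KO* DMSO replicate 2 also gave -0.56. These 5-FU values are set against the same DMSO libraries as the genotype comparison.

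*TCF7* rose in *KO* cells from 30.7 to 31.2 CPM with DMSO to 49.1, 50.9 and 51.2 CPM with 5-FU, a log2 difference of 0.70 ± 0.06 (FDR = 9.28e-08 by edgeR) that was -0.52 and not called with the RUVg factor. With the minimum fold change inside the test its FDR was 0.0756. *NKD1* and *NOTUM* had log2 differences of -0.46 and -0.39, under the minimum fold change, and *ZNRF3* one of 0.16. *SP5* had overlapping libraries at 0.713 to 1.30 CPM and a 95% confidence interval of the difference from -0.75 to 0.50.

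**Figure D3:**
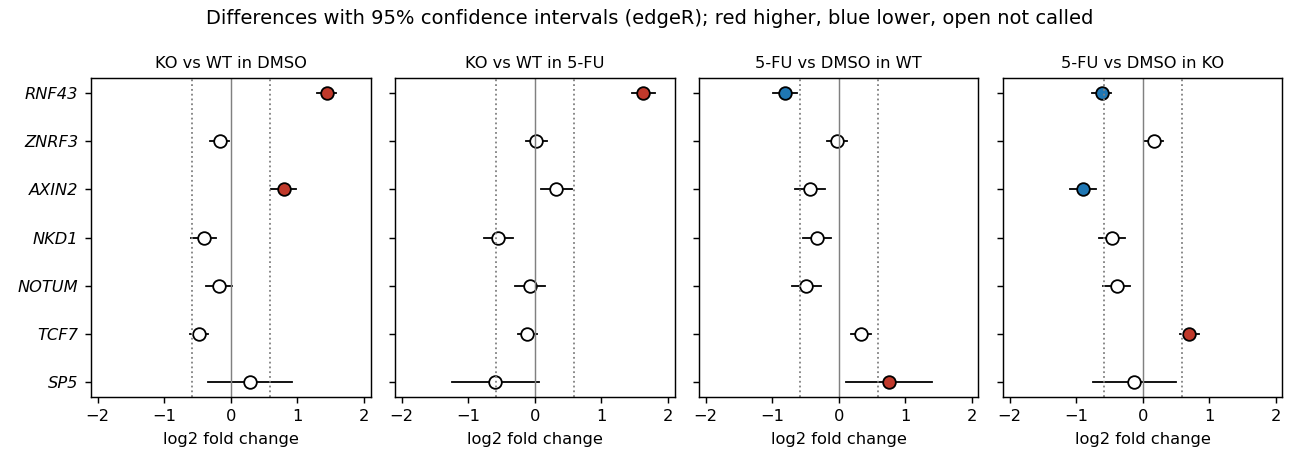
Log2 fold change (x axis) of the 7 tested genes in the genotype comparisons under DMSO and 5-FU and in the 5-FU comparisons of *WT* and *KO* cells, with 95% confidence intervals from edgeR. Filled points passed the test, red for higher and blue for lower, open points did not, and dotted lines mark the minimum fold change of 1.5; *RNF43* is at 1.44 and 1.63 in the genotype comparisons.

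Between the genotypes after 5-FU, 7.58% of all tested genes were higher and 10.6% lower in *KO* cells. *RNF43* alone among the 7 genes passed, at 42.1 to 46.4 CPM against 13.8 and 14.5 CPM in *WT* cells, a log2 difference of 1.63 ± 0.08 (FDR = 3.54e-10 by edgeR) or 3.10-fold. Over 20 alternatives this value ranged from 1.55 to 1.68, and that under DMSO from 1.16 to 1.48, with the call kept in all 20 of each. The 20 neighbors of *RNF43* had a median of -0.11, with *TSPOAP1-AS1* again above it at 2.78. *AXIN2* was at 6.56 to 6.91 CPM against 5.29 and 5.45 CPM, a log2 difference of 0.33 (FDR = 0.0188 by edgeR) under the minimum fold change. *NKD1* at 10.5 to 11.1 CPM lay below both *WT* libraries, with a difference of -0.55 (FDR = 0.000347 by edgeR), which without *WT* 5-FU replicate 3 was -0.60 and passed. *TCF7*, *ZNRF3* and *NOTUM* had overlapping libraries and differences of -0.11, 0.03 and -0.07, and *SP5* had -0.59 with a 95% confidence interval from -1.24 to 0.06.

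Whether the response to 5-FU differed between the genotypes was tested by the interaction. By FDR and the minimum fold change 3.42% of all tested genes had a more positive and 6.66% a more negative response in *KO* cells. An unadjusted p under 0.05 by edgeR was found for 6203 of all 16123 tested genes. Of the 7 genes 0 passed by edgeR and 0 by DESeq2, and 2 had an unadjusted p under 0.05. These were *AXIN2*, whose log2 response was more negative in *KO* cells by 0.47 (95% confidence interval of the difference -0.76 to -0.17), and *TCF7*, whose response was more positive by 0.37 (0.17 to 0.57). For *RNF43* the difference was 0.19 with an interval from -0.03 to 0.41, so that the genotypes could not be told apart in how far 5-FU lowered it. The interval for *SP5* was wide, from -1.78 to 0.02.

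Near the start sites, the core letters bound by TCF/LEF factors were searched on both strands as CTTTGAT or CTTTGTT. Other spellings of this core were not searched and are not marked. RefSeq windows of 250 bases before to 50 after a start site (GRCh38.p14) were at hand for 4 of the 10 genes, with 2 windows each for *TCF7* and *RNF43* and 1 each for *SP5* and *LEF1*. Of these 6 windows 2 held a match, and of all 35116 windows 7.61% did. *SP5* (chr2:170715087-170715386, plus strand) holds CTTTGAT, in capitals, 109 bases before the start site. The downstream window of *TCF7* (chr5:134123368-134123667, plus strand) holds CTTTGTT on the opposite strand, so that the capitals read AACAAAG, 50 bases before the start site. They are shown because these 2 factors were the genes of the list that rose with 5-FU, *SP5* in *WT* and *TCF7* in *KO* cells. Both directions turned with the RUVg factor. The 2 windows were picked with these values known, and no window was at hand for *AXIN2*, *NKD1*, *ZNRF3* or *NOTUM*. A link between a match and the response to 5-FU was not tested.
SP5 promoter: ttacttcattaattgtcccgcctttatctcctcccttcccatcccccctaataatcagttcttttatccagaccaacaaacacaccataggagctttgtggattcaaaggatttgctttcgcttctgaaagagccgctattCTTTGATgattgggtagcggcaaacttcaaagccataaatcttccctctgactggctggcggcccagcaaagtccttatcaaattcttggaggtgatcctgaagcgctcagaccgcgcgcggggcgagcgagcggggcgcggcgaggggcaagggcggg
TCF7 promoter, downstream start: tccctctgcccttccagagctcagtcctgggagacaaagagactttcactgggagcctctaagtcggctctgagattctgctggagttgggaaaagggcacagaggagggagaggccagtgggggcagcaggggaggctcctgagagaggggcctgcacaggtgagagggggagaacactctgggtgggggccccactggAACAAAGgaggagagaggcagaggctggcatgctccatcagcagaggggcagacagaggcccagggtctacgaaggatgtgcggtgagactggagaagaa

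The rest of the pathway was described from lists of genes by role. Counts are of genes that passed the same test, and in the genotype comparisons no gene called here changed sign with TMM factors, DESeq2 or the RUVg factor. In the 5-FU comparisons the same held for TMM factors and DESeq2, while with the RUVg factor none of these listed genes passed and several turned. With that factor the calls between the genotypes under DMSO were 1 of the receptors in place of 2. They were 1 of the cytoplasmic genes in place of 0 and 1 of the further stem cell markers in place of 2. Of the ligand list there were 3 in place of 5. The differentiated cell markers had 2 higher and 2 lower under DMSO in place of 2 and 3. The other reported Wnt targets had this same change under both treatments. Under 5-FU the calls were 2 of the nuclear partners in place of 1. There, 6 of the receptors and 6 of the differentiated cell markers were called in place of 4. Of 16 cytoplasmic transducers and members of the destruction complex 0 passed between *KO* and *WT* cells by edgeR or DESeq2 under either treatment. Over all tested genes 9.1% were higher and 4.97% lower under DMSO, and 7.58% higher and 10.6% lower under 5-FU. An unadjusted p under 0.05 by edgeR was found for 6 of the 16 under DMSO and 9 under 5-FU. Over all 16123 tested genes it was found for 8503 and 8975. *CTNNB1* had log2 differences of 0.13 under DMSO and 0.15 under 5-FU, *APC* of 0.24 and 0.16, *GSK3B* of 0.12 and 0.03 and *AXIN1* of -0.10 and -0.17. After 5-FU 2 of the 16 rose in both genotypes, the Dishevelled gene *DVL3* by 0.67 and 0.65 and *NKD2*, the homolog of *NKD1*, by 0.70 and 1.07, all 4 values negative with the RUVg factor.

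Of 17 tested Wnt ligands, R-spondins and secretion factors, 2 were higher and 3 lower in *KO* than in *WT* cells under DMSO, and 0 higher and 5 lower under 5-FU. The 5 were 3 with TMM factors or DESeq2 and 6 with the RUVg factor. *RSPO4*, a ligand of the LGR receptors that protects Frizzled from RNF43 and ZNRF3, was lower by both comparisons with log2 differences of -1.77 and -2.33. *WNT9A* was higher by 0.98 under DMSO. With 5-FU 7 genes of this list rose and 0 fell in *WT* cells, and 6 rose and 1 fell in *KO* cells. The secretion factor *PORCN* was among the risers in both, with the opposite sign in both under the RUVg factor. *WNT7A* rose by 3.87 and 3.37 and *WNT9A* by 2.44 and 1.83, and both kept a positive sign with the RUVg factor, whereas *WNT10A* at 1.74 and 0.98 did not.

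Of 17 tested receptors and co-receptors, 0 were higher and 2 lower in *KO* cells under DMSO, and 2 were higher and 2 lower under 5-FU. With 5-FU 1 rose and 4 fell in *WT* cells, and 3 rose and 5 fell in *KO* cells. *LGR6*, a riser in both, had 1 to 6 counts in *WT* DMSO and 2 to 10 in *KO* DMSO libraries. With 5-FU it had 46 to 64 and 36 to 58. *FZD8*, a riser in *KO* cells, had 0 counts there with DMSO and 3 to 4 with 5-FU. It was also called lower in *KO* cells under both treatments, against 2 to 13 and 11 to 24 counts in *WT* libraries. The Frizzled genes *FZD4* (-1.26 in *WT*, -1.22 in *KO*), *FZD7* (-0.87, -0.84) and *FZD3* (-1.12, -0.66) fell in both genotypes, the last with the opposite sign under the RUVg factor. *FZD2* fell in *KO* cells with a log2 difference of -1.001, against 0.13 in *WT* cells, and this interaction passed the test at -1.13.

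Of 14 tested nuclear partners 0 were higher and 1 was lower in *KO* cells under each treatment. *TCF7L2*, the main TCF factor of the intestinal epithelium, fell with 5-FU in *KO* cells by 0.97 and had a value of -0.55 in *WT* cells. Its homolog *TCF7* went in the opposite direction. With the RUVg factor, however, *TCF7* was at -0.52 in *KO* cells, where *TCF7L2* kept its negative sign. The β-catenin cofactor *BCL9* fell in *KO* cells by 0.74, and *BCL9L* rose in *WT* cells by 0.75, a sign that turned with the RUVg factor. Of 6 tested secreted and membrane inhibitors 0 passed between the genotypes by edgeR or DESeq2 under either treatment, with 4 at an unadjusted p under 0.05 under DMSO and 2 under 5-FU. With 5-FU 2 rose in both genotypes, of which *KREMEN2*, a DKK receptor, did so by 0.89 and 0.76, with a negative sign under the RUVg factor.

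Other reported Wnt targets moved in both directions. Of 15 tested, 2 were higher and 3 lower in *KO* cells under DMSO, and 2 higher and 3 lower under 5-FU. *TIAM1*, a Rac activator, was higher by 1.11 and 0.80. *EPHB3*, a guidance receptor of crypt cells, had a log2 difference of -0.64 under DMSO. With 5-FU 5 rose and 1 fell in *WT* cells, and 5 rose and 3 fell in *KO* cells. *CCND1*, encoding cyclin D1, rose by 1.15 and 1.06, with the same sign under the RUVg factor, while *EPHB3* at 1.11 and 1.68 and *JUN* at 1.32 in *KO* cells turned with that factor. These targets and the 7 genes above therefore shared no single direction after 5-FU.

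Of 9 tested further stem cell markers, 1 was higher and 1 lower in *KO* cells under DMSO, and 1 higher and 2 lower under 5-FU. *LRIG1*, an inhibitor of ERBB receptors, was higher by 1.03 and 1.14, and *TERT*, encoding the catalytic subunit of telomerase, had differences of -1.28 and -1.73. With 5-FU 1 rose and 1 fell in *WT* cells and 0 rose and 2 fell in *KO* cells. *CDCA7* fell by 1.30 and 0.69, with the opposite sign under the RUVg factor.

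Of 23 markers of differentiated intestinal cells only 8 were above the count minimum, and 7 were at 0 in every library. Between the genotypes 2 were higher and 3 lower in *KO* cells under DMSO and 2 higher and 2 lower under 5-FU. Among them were *DCLK1*, a tuft cell marker, at 3.16 and 2.04 and *KRT20*, a keratin of surface cells, at -2.31 and -2.41. *POU2F3*, also of tuft cells, was lower in *KO* cells under both treatments. Its means were 0.339 CPM in *KO* and 0.987 CPM in *WT* cells under DMSO, and 0.369 and 2.23 CPM under 5-FU. With 5-FU 4 rose and 0 fell in *WT* cells and 4 rose and 1 fell in *KO* cells. The goblet cell mucin *MUC2* was among the risers at 3.84 and 4.48, a sign that turned with the RUVg factor. *TFF3*, also of goblet cells, was at 0 counts in every library, and *SPDEF* was at 0 to 4.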

How the data were processed

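Per the study's methods, random-primed libraries were read as paired ends, mapped to GRCh38/hg38 with Ensembl annotation in CLC Genomics Workbench and counted by the authors, who deposited counts per gene for each library (unit: counts, not normalized). Whether counting used strand is not given in the sources used here. Groups follow the sample labels. The file of *WT* 5-FU replicate 1 was identical to that of *WT* DMSO replicate 3 and was left out, and the column headers of the other *WT* 5-FU files carry other replicate numbers than their labels. A gene was kept (16123) if any library had 20 or more counts. Upper-quartile factors ran from 0.955 to 1.05, and all 4 groups shared 1 model with group means (edgeR 4.0.16 quasi-likelihood test, two-sided, R 4.3.3; biological coefficient of variation 6.72%). SE and 95% confidence intervals come from this fit, and FDR is Benjamini-Hochberg over all genes tested. CPM uses the same factors. The scripts were tested on simulated data.

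The 10 genes, the lists and the tests were chosen with earlier results of these data known. The first 4 genes at most of each list with the largest absolute log2 fold change among those called in any of the 4 single comparisons and with a mean of at least 1 CPM were eligible to be named, besides *CTNNB1*, *APC*, *AXIN1*, *GSK3B*, *TCF7L2*, *MIR34AHG* and *CDKN1A*; *SKP1* and *TSPOAP1-AS1* were named for their overlap after values were seen. *POU2F3*, *TFF3* and *SPDEF* were named beside *DCLK1* and *MUC2* after values were seen. *PORCN*, *LGR6* and *FZD8* were also named outside this rule, with values known. Positions, 3′ UTRs and neighbors are from GENCODE 44, and a neighbor needed a symbol with 1 position (14135 tested genes). The study removed variation with RUVg before DESeq2; its control genes are not named, so RUVg on 11123 genes of own choice and DESeq2 1.42.0 were alternatives. Protein sequences were not used here. Counting error alone limits values near 0, where 3 counts were taken as the limit.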

Additional observations from a re-analysis of the deposited data

Results flagged for a closer look

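For 2 of the 7 tested genes the response to 5-FU differed between the genotypes by the interaction term at an FDR below 0.05, without the minimum fold change. An unadjusted p under 0.05 for this term was found by edgeR for these 2 and for 6203 of all 16123 tested genes. Such a difference was thus not particular to the list. The log2 response of *AXIN2* was -0.43 in *WT* and -0.89 in *KO* cells, a difference of -0.47 (FDR = 0.0222 by edgeR). The log2 response of *TCF7* was 0.34 in *WT* and 0.70 in *KO* cells, a difference of 0.37 (FDR = 0.00934 by edgeR). Under DMSO the log2 difference of *KO* against *WT* cells was 0.79 for *AXIN2* and -0.48 for *TCF7*, and the same DMSO libraries enter both values. Over the alternatives the difference was between -0.51 and -0.39 for *AXIN2* and between 0.27 and 0.53 for *TCF7*. The cause was not tested.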

How the results depend on the processing

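Counts of called genes among the 7 changed as follows, and the causes were not tested. Without a minimum fold change they were 4 and 3 between the genotypes under DMSO and 5-FU, 6 for 5-FU in each genotype and 2 for the interaction. With the minimum inside the test they were 1 between the genotypes under DMSO and 1 for 5-FU in *WT* and in *KO* cells. With the RUVg factor they were 0 for 5-FU in either genotype and 2 between the genotypes under 5-FU, and under DMSO *TCF7* (-0.70) was called in place of *AXIN2*. For 5-FU in *WT* cells DESeq2, no count filter and at least 20 counts in every library (where *SP5* was not tested) gave 1, and leaving out a library gave 1 to 2 there and between the genotypes under 5-FU. Same-numbered libraries did not deviate together (correlations -0.0506 to 0.041 by the labels). With so few libraries per group the deviations depend on each other, so this does not settle whether the numbers pair the libraries. The replicate block gave 1 call for 5-FU in *WT* cells, as did blocks by the header numbers over all groups or within genotype, chosen after seeing the headers, and no replicate block changed another call. Signs turned with the RUVg factor for *TCF7* (-1.05 in *WT*, -0.52 in *KO*), *SP5* (-1.04 in *WT*), *ZNRF3* (-0.0022 in *KO*) and the *NKD1* interaction (0.10). With a library left out, values that were not called spanned 0 for *ZNRF3* (5-FU in *WT*, -0.082 to 0.028 with 0.013 among them; genotypes under 5-FU, -0.026 to 0.084), *SP5* (5-FU in *KO*, -0.37 to 0.066), *NOTUM* (genotypes under 5-FU, -0.19 to 0.072; interaction, -0.022 to 0.24). Few counts limit *SP5*, *LGR5*, *ASCL2* and *LEF1*.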
